A study of Mus musculus with 18 samples.

Results

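The core autophagy machinery of C2C12 cells was followed as 37 genes, each of which had 1 row among the 50600 gene identifiers of the count files. The rows were found by matching the Ensembl identifier, without its version suffix, to the GENCODE M21 symbol. C2C12 is a mouse myoblast line that leaves the cell cycle and fuses into myotubes when growth factors are withdrawn. The series holds 3 stable lines of it: a control line that received a control plasmid, a line depleted of the atypical MAP kinase ERK3 (gene Mapk6) with px459-Mapk6sg, and a line depleted of its partner kinase MK5 (gene Mapkapk5) with px459-Mk5sg. The px459 plasmid carries Cas9 and a guide RNA. Poly-A RNA of each line was sequenced from growing cultures (GM, growth medium) and from cultures kept for 2 days in differentiation medium, DM2, which makes 6 groups of 3 libraries, 18 in all. All 3 lines are transfected stable lines. The labels do not say whether a line is 1 clone or a pool, nor whether its numbered libraries are separate cultures, so the p-values describe only how these samples vary.

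Macroautophagy wraps a portion of cytoplasm in a growing double membrane, the phagophore, and delivers it to the lysosome. The ULK complex starts the process, a class III PI3-kinase complex marks the membrane with a lipid, ATG9 vesicles and ATG2 supply lipid, and a ubiquitin-like relay attaches LC3 and GABARAP proteins to the membrane, where cargo receptors bind them. In skeletal muscle FoxO3, the transcription factor that the title of the series names beside ERK3 and MK5, is known to raise the transcription of several of these genes, and TFEB does so for autophagy and lysosome genes through the CLEAR motif.

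By role the 37 genes were 5 of the ULK initiation complex (Ulk1, Ulk2, Atg13, Rb1cc1, Atg101), 6 of the PI3-kinase complex and its regulators (Becn1, Pik3c3, Pik3r4, Atg14, Uvrag, Ambra1) and 5 of membrane supply and lipid recognition (Atg2a, Atg2b, Wipi1, Wipi2, Atg9a). The conjugation enzymes and their partners made up 6 (Atg3, Atg5, Atg7, Atg10, Atg12, Atg16l1), the ATG4 proteases that trim and release LC3 made up 4 (Atg4a, Atg4b, Atg4c, Atg4d), and the LC3 and GABARAP proteins, which are the ATG8 family, made up 5 (Map1lc3a, Map1lc3b, Gabarap, Gabarapl1, Gabarapl2). Another 5 were cargo receptors (Sqstm1, Nbr1, Optn, Bnip3, Bnip3l), and the last was the transcription factor gene Tfeb.

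All 37 genes were expressed and passed the filter on low counts. Per transcript length, the highest level in control GM was that of Gabarap, at 732 ± 87.6 TPM (transcripts per 1e6 transcripts, from the authors' RSEM files, mean ± SD, n = 3), followed by Sqstm1, the p62 receptor, at 461 ± 20.6 TPM. Bnip3l stood at 198 ± 5.89 TPM, Map1lc3a at 178 ± 31.9 TPM and Map1lc3b at 166 ± 9.26 TPM. The spread of Map1lc3a covers the other two of these 3. The lowest levels were those of the lipid transfer genes Atg2b (4.47 ± 0.221 TPM) and Atg2a (6.60 ± 0.395 TPM) and of Atg14 (5.72 ± 0.465 TPM), which targets the PI3-kinase complex to the phagophore. The kinase gene Ulk1 stood at 14.8 ± 0.567 TPM, and Tfeb at 10.4 ± 0.330 TPM. The top 7 places were held by the 5 ATG8 genes with Sqstm1 and Bnip3l. Place 7, Gabarapl2 at a mean of 95.1 TPM, was barely above place 8, Becn1 at 94.5 TPM.

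Promoter sequences were searched for motifs of the factors named above, because the members that share a motif can then be read side by side in the comparisons. RefSeq windows of 300 bases (250 before the transcription start and 50 after it, GRCm38.p6) were at hand for 30 of the 37 genes, with 35 windows in all. Those not matched were Atg12, Map1lc3a, Rb1cc1, Becn1, Atg16l1, Bnip3l and Pik3c3. The 8 letters GTCACGTG, the core of the CLEAR motif, or their reverse complement CACGTGAC were found in 3 of the 30 genes (10% of them, against 2.55% of all 27025 genes with a window): Atg3, Atg14 and Atg7. Not every window sits at the 5′ end of the GENCODE gene: the start site of the Atg14 window lies 2215 bases inside the gene, that of Atg7 27999 and that of Wipi2 1886 bases inside, and that of the Atg4a window with a match 3062 bases before it. The shorter E-box CACGTG, which lies inside GTCACGTG and reads the same on both strands, was found in 5 (16.7% against 8.09%), the same 3 genes with Atg5 and Bnip3. The FoxO site TGTTTAC or GTAAACA was in 0 of the 30 genes and in 4.05% of all genes. Its core TGTTTA or TAAACA was in 4 (13.3% against 15.1%): Ambra1, Atg4a, Gabarapl1 and Wipi2. A match of letters is a description of the window only. The windows of a pair with the CLEAR core and a pair with the FoxO core are shown with the matched letters in capitals, each on its gene's strand.
Atg3, chr16:45158579-45158878, plus strand: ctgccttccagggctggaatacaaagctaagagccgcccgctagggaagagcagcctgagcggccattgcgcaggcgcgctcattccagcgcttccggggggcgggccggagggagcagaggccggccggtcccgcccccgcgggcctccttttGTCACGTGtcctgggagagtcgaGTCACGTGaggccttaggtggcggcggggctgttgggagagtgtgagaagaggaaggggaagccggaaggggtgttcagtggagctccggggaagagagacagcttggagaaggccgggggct
Atg14, chr14:47568385-47568684, minus strand: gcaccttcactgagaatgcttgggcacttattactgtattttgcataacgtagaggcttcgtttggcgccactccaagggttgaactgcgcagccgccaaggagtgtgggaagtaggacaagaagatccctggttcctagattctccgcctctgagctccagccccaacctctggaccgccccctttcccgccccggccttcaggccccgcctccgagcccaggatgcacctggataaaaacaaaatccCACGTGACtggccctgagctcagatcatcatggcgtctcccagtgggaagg
Wipi2, chr5:142629334-142629633, plus strand: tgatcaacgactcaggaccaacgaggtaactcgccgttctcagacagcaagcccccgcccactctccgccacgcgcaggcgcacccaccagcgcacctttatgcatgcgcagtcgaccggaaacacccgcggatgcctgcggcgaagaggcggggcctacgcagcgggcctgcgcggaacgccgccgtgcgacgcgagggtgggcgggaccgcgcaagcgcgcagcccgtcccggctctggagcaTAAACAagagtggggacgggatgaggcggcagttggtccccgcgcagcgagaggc
Gabarapl1, chr6:129532942-129533241, plus strand: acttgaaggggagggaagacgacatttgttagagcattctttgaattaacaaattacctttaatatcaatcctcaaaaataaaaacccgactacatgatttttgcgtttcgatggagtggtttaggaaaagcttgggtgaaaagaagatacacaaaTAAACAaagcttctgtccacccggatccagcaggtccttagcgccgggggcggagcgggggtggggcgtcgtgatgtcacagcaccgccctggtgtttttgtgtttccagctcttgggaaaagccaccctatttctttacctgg

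The CLEAR core occurred at 2 places in the Atg3 window, starting 96 and 73 bases before the start site, and directly at the start site of Atg14, from 1 base before it. Of this pair, both rose with differentiation in the control line, where 22.5% of all genes were called higher. Both were called lower in ERK3-depleted than in control cells at DM2, as were 27.8% of all genes. Neither of these calls against control was kept when the share of reads outside genes entered the model, with Atg3 then at 0.023 on the log2 scale. Atg7, the third gene with the CLEAR core, was called in no comparison. Of the 4 genes with the FoxO core, Wipi2 was higher in ERK3-depleted than in control cells at DM2 and rose from GM to DM2 in both depleted lines. Its difference from control was not called once the share of reads outside genes entered the model. Atg4a rose in control and was lower than control in both depleted lines at DM2, Ambra1 rose from GM to DM2 in both depleted lines and was not called against control, and Gabarapl1 was called in no comparison.

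Gene counts missed a part of some members: they made up 24.0% of the RSEM estimate for Gabarapl2, 37.03% for Atg9a, 55.2% for Atg4a, 63.7% for Map1lc3b, 64.4% for Bnip3 and 69.2% for Bnip3l over all libraries, and at least 91.7% for every other member.

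Between 17.5 and 23.4 M counts per library fell in genes, where M is 1e6, and gave each of the 37 genes at least 45 counts in every library. Reads outside genes took 2.40 to 3.22% of the reads in the 12 libraries of control cells and of GM, but 5.55, 7.73 and 3.79% in ERK3-depleted DM2 libraries 1 to 3 and 3.96, 4.11 and 2.84% in those of MK5-depleted DM2. The counts of calls that involve depleted cells at DM2 are therefore given also without ERK3-depleted libraries 1 and 2 and MK5-depleted libraries 1 and 2 at DM2, which leaves n = 1 in each of these groups, with the spread taken from the others. Mapk6 in GM stood at 131 ± 17.0 CPM (counts per 1e6 counts, TMM-scaled, mean ± SD, n = 3) in control, 118 ± 13.98 CPM in ERK3-depleted and 164 ± 19.1 CPM in MK5-depleted cells, and at DM2 at 210 ± 7.84, 116 ± 19.6 and 159 ± 5.61 CPM. Mapkapk5 was counted at 1.03 ± 0.133 CPM in control GM and 0.706 ± 0.123 CPM in MK5-depleted GM, and at 1.30 ± 0.265 against 0.811 ± 0.185 CPM at DM2. An edited gene can still be transcribed, so these levels check the labels only in part. The summed level of 9 myotube markers rose from 73.4 to 127 CPM in control GM libraries to between 2946 and 3449 CPM in control DM2, with 1771 to 2645 CPM in ERK3-depleted and 1840 to 3167 CPM in MK5-depleted DM2. Markers of endothelial, immune, adipocyte and neural cells (5 of each) summed to at most 3.35 CPM in any library, and 7 fibroblast markers to between 27.1 and 134 CPM. Myoblast markers (6) summed to 1232 to 1438 CPM in control GM, 1652 to 1857 CPM in ERK3-depleted and 1578 to 1849 CPM in MK5-depleted GM, and at DM2 to 2038 to 2239, 2820.0 to 3239 and 2624 to 3082 CPM. Emcn, Adgre1, Cd3e, Plin1, Cidec, Lep and Snap25, defining markers of those other cell types, were at 0 in every library. In bulk RNA fewer cells of a type and less RNA per cell cannot be told apart.

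In the control line most of the machinery genes that passed the test between GM and DM2 were higher at DM2. Of the 37 genes 14 were higher, 2 were lower and 21 were not called by the edgeR quasi-likelihood test (called under a Benjamini-Hochberg adjusted p of 0.05 over all 13939 genes tested). Over all genes 45.6% were called, 22.5% higher and 23.1% lower, so the share of members called was near the background, and most of their calls were upward. The median log2 fold change of the 37 was 0.17, against -0.02 over all genes. The 2 lower genes were both mitophagy receptors, Bnip3 and Bnip3l, and every other called member was higher.

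Bnip3, a receptor on mitochondria known as a hypoxia-induced gene, stood at 54.9, 60.8 and 60.0 CPM in GM and at 38.9, 34.2 and 30.3 CPM at DM2. Every DM2 library lay under every GM library, and the gene fell by 0.76 on the log2 scale (SE 0.14, edgeR adjusted p = 0.000205). Its relative Bnip3l stood at 137, 148 and 148 CPM in GM and 105, 107 and 105 CPM at DM2, again without overlap, and fell by 0.45 (SE 0.14, edgeR adjusted p = 0.0144). The fall of Bnip3l was lost on the TPM scale, also where TPM were TMM-scaled (log2 fold change -0.20, limma adjusted p = 0.0600), and after correction for gene length and GC content (-0.28, edgeR adjusted p = 0.0947). Sqstm1 rose by 0.39 and Nbr1, a receptor of like domain structure, by 0.27 on the log2 scale, and Optn, a receptor known for mitophagy, was not called (-0.23).

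Of the initiation complex, the kinase gene Ulk1 and the scaffold gene Atg13 rose. Ulk1 stood at 54.1, 48.4 and 48.1 CPM in GM and at 75.0, 74.3 and 64.5 CPM at DM2. The groups did not overlap, and Ulk1 rose by 0.51 on the log2 scale (SE 0.09, edgeR adjusted p = 0.000203), a change of 1.42-fold. Of the PI3-kinase complex Becn1, Atg14 and Uvrag rose. Uvrag, which takes the place of Atg14 in a second form of the complex that acts on endosomes, had the largest rise of all called members, from 33.3, 37.2 and 38.3 CPM to 50.2, 58.6 and 50.8 CPM (log2 fold change 0.55, SE 0.09, edgeR adjusted p = 0.000111). All 3 of its DM2 libraries lay above all 3 GM libraries. The other form's subunit Atg14 rose by 0.31 and Becn1, the shared subunit, by 0.30, while Pik3c3, the lipid kinase itself, was not called (-0.09).

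Of the conjugation enzymes Atg3, Atg12 and Atg16l1 rose. Atg3, the E2-like enzyme that hands LC3 to its lipid, stood at 59.7, 59.4 and 57.6 CPM in GM and at 79.8, 77.7 and 79.9 CPM at DM2 (log2 fold change 0.43, SE 0.12, edgeR adjusted p = 0.00909), with no overlap. Of the ATG8 proteins Map1lc3a and Map1lc3b, the LC3 genes, rose. The call of Map1lc3b was lost on TMM-scaled TPM. Map1lc3a stood at 110.0, 165 and 135 CPM in GM and at 187, 196 and 187 CPM at DM2 (log2 fold change 0.48, SE 0.18, edgeR adjusted p = 0.0376), and the wide GM libraries still lay under those of DM2. That call was lost when control GM library 1 or 3 or any of the 3 control DM2 libraries was left out, with adjusted p from 0.0663 to 0.151. Atg14, Atg4a and Atg2a each lost their call in 3 cases of 1 library left out, all among the control libraries (adjusted p 0.0662 to 0.145). Atg9a stood at 19.8, 19.8 and 22.1 CPM in GM and 32.9, 32.4 and 28.3 CPM at DM2, apart and not called (log2 fold change 0.60, SE 0.31, edgeR adjusted p = 0.129). Of the 16 calls, 9 were kept under all 17 alternatives and with each library left out in turn: Ulk1, Atg13, Becn1, Uvrag, Atg3, Atg12, Atg16l1, Sqstm1 and Bnip3.

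**Figure D1:**
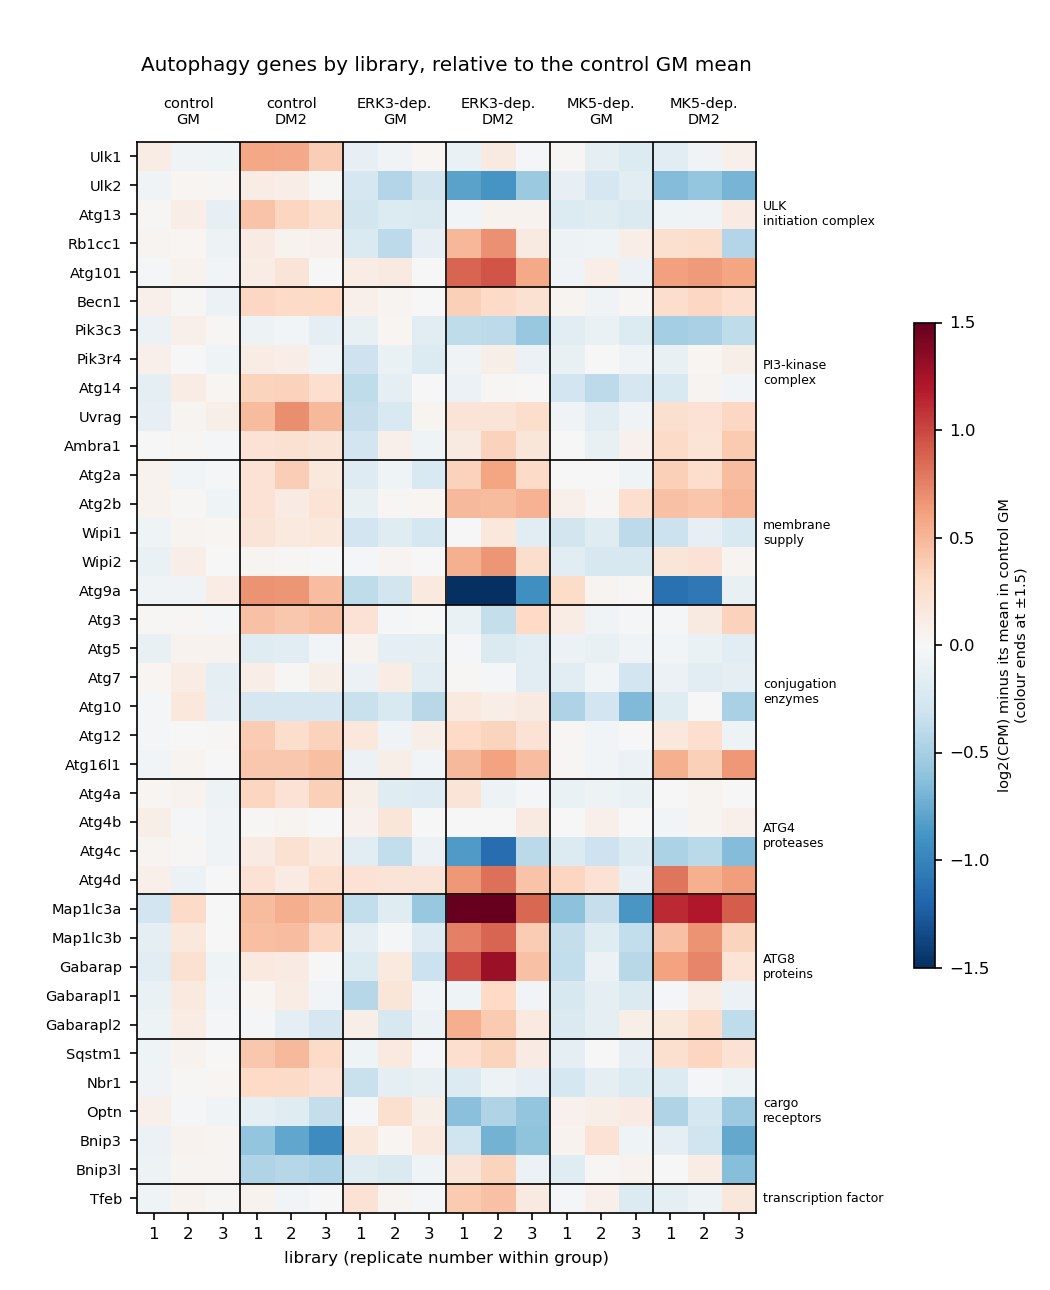
Levels of the 37 genes in the 18 libraries, as log2(CPM) minus its mean in control GM (red higher, blue lower, colour ending at 1.5), with genes ordered by role and 3 libraries per group. Atg9a shows the deepest blue, in ERK3-depleted DM2 libraries 1 and 2, and Map1lc3a the deepest red, in the DM2 libraries of both depleted lines.

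In growth medium nearly all of the machinery was uncalled in either depleted line, as were most of all genes. The share of members called was 2.70% in ERK3-depleted and 8.11% in MK5-depleted cells, under or near the background. In ERK3-depleted against control cells 1 member was lower and 0 were higher (6.79% of all genes were called, 3.72% higher and 3.06% lower), with a median of -0.08 over the members and -0.01 over all genes. That gene was Ulk2, the second ULK kinase, which stood at 92.2, 97.7 and 97.2 CPM in control and at 80.3, 70.7 and 79.3 CPM in ERK3-depleted GM. The groups did not overlap, and Ulk2 was lower by 1.25-fold (log2 fold change -0.32, SE 0.08, edgeR adjusted p = 0.0298). The call was lost without control GM library 2 or 3 or without any of the 3 ERK3-depleted GM libraries (adjusted p 0.0533 to 0.161). In MK5-depleted cells Ulk2 was not called in GM (84.7 ± 3.74 CPM, log2 fold change -0.18).

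In MK5-depleted against control GM cells 3 members were lower and 0 higher (8.45% of all genes, 4.71% higher and 3.74% lower), with a median of -0.08 against -0.01 over all genes. The 3 were Map1lc3a, Atg10 and Wipi1. Map1lc3a stood at 87.7, 106 and 73.6 CPM, each under the 3 control libraries given above (log2 fold change -0.62, SE 0.18, edgeR adjusted p = 0.0445). Atg10, the E2-like enzyme that joins Atg12 to Atg5, stood at 13.8, 15.8 and 12.97 CPM in control and 10.3, 11.6 and 8.91 CPM in MK5-depleted GM (log2 fold change -0.47, SE 0.12, edgeR adjusted p = 0.0276). Wipi1, a reader of the lipid made by the PI3-kinase, stood at 134, 143 and 143 CPM in control and 116, 123 and 106 CPM in MK5-depleted GM (log2 fold change -0.28, SE 0.08, edgeR adjusted p = 0.0429). None of the 3 genes' groups overlapped. Leaving out 1 library ended the call of Map1lc3a in 9, of Atg10 in 4 and of Wipi1 in 9 of 18 cases (adjusted p at most 0.259), and the count fell to 0 without control GM library 2 or 3 or MK5-depleted GM library 1 or 3. Both comparisons use the same control libraries. With the replicate number as a block 3 members were lower in ERK3-depleted and 6 in MK5-depleted GM, and 0 were higher in either, where 13.7% and 14.7% of all genes were called. The 7 fibroblast markers summed to 38.2 to 55.2 CPM in control GM, 27.8 to 33.3 CPM in ERK3-depleted and 27.1 to 27.6 CPM in MK5-depleted GM, with all 4 tested markers lower in both, and the part of this in the results was not tested.

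After 2 days in differentiation medium both depleted lines differed from control across the machinery, in both directions. In ERK3-depleted cells 11 members were higher and 12 lower than in control DM2 (55.8% of all genes were called, 28% higher and 27.8% lower), with medians of -0.00 over the members and 0.01 over all genes. In MK5-depleted cells 5 were higher and 12 lower (45.1% of all genes, 22.2% higher and 22.9% lower), with medians of -0.02 and 0.00. The counts called were thus near the background in both lines. By role, 3 of the 5 ATG8 genes were higher and 0 lower in ERK3-depleted cells, while the called members of the PI3-kinase complex were all lower in both lines. The comparisons share the 3 control DM2 libraries, and 14 members were called in the same direction in both: 10 lower (Ulk1, Ulk2, Atg13, Pik3c3, Atg14, Uvrag, Atg9a, Atg4a, Atg4c and Nbr1) and 4 higher (Atg101, Atg2b, Atg4d and Map1lc3a). The same joint count was not made over all genes, so these 14 have no background beside them.

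**Figure D2:**
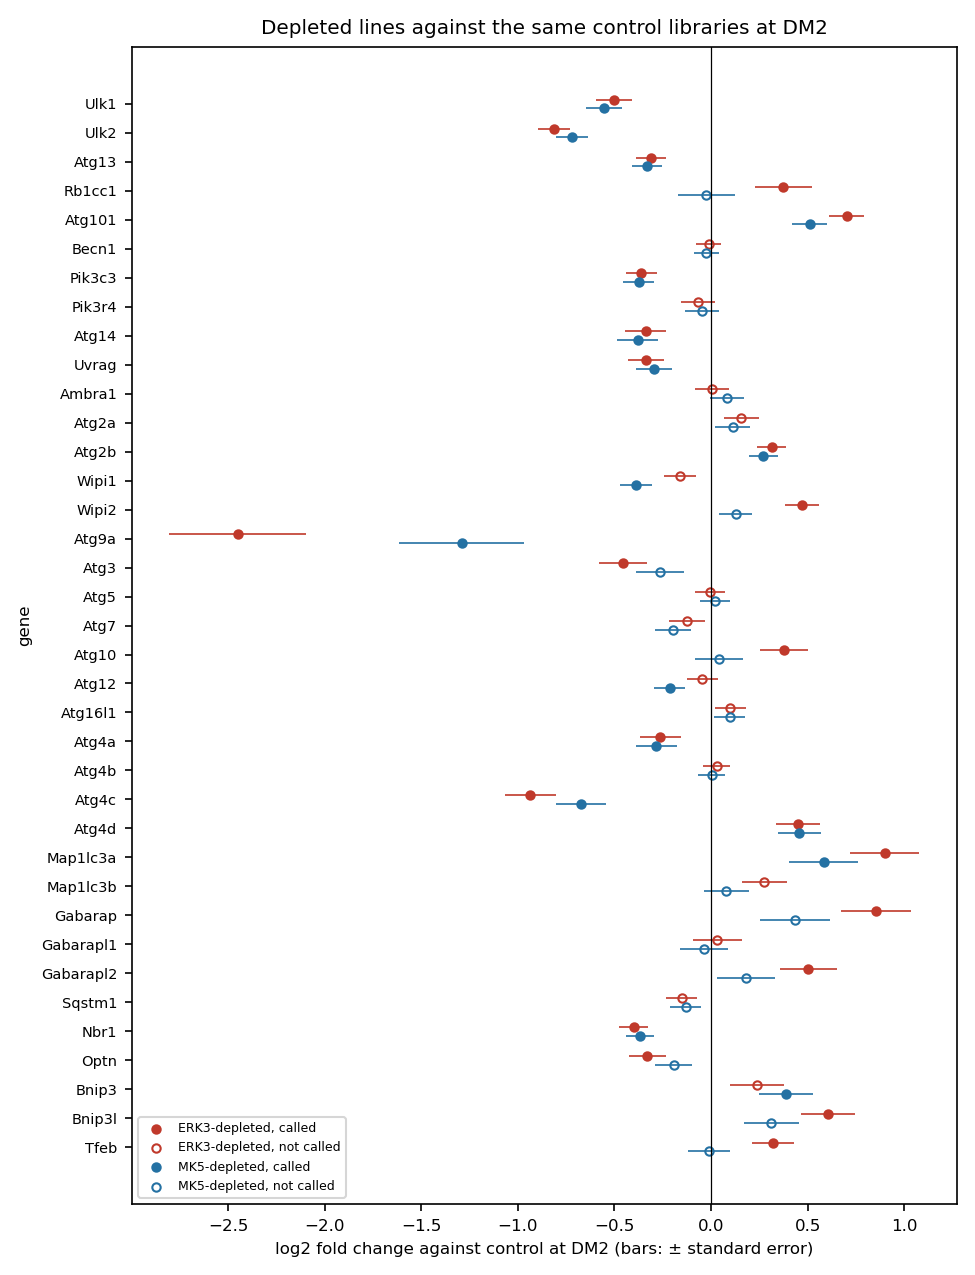
Log2 fold change (± standard error) of each of the 37 genes at DM2 in ERK3-depleted (red) and MK5-depleted (blue) cells against the same 3 control libraries, with called genes filled. Atg9a lies farthest to the left in both lines (-2.45 and -1.29) and Map1lc3a farthest to the right (0.90 and 0.58).

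Both ULK kinase genes were lower in both depleted lines at DM2. Ulk2 (chr11:61775649-61855073, minus strand) stood at 104, 103 and 96.5 CPM in control DM2, at 54.9, 52.0 and 65.3 CPM in ERK3-depleted and at 60.9, 63.9 and 58.8 CPM in MK5-depleted cells. No depleted library reached the lowest control library. Ulk2 was 1.76-fold lower in ERK3-depleted (log2 fold change -0.81, SE 0.08, edgeR adjusted p = 3.98e-06) and 1.65-fold lower in MK5-depleted cells (-0.72, SE 0.08, edgeR adjusted p = 1.36e-05). Ulk1 (chr5:110784488-110810097, minus strand) stood at 46.9, 55.0 and 49.2 CPM in ERK3-depleted and 44.6, 48.2 and 52.9 CPM in MK5-depleted cells, all under the control DM2 libraries given above and close to the control GM level (log2 fold changes -0.50 and -0.55). Their partner Atg13 was lower too (-0.31 and -0.33), a call that was lost in both lines after correction for gene length and GC content (-0.05 and -0.16) and without the 4 DM2 libraries with many reads outside genes (-0.29 and -0.20). Atg101, which stabilises Atg13, went the other way: it stood at 35.4, 37.4 and 32.7 CPM in control DM2 and at 60.2, 63.0 and 48.4 CPM in ERK3-depleted and 50.2, 50.9 and 49.3 CPM in MK5-depleted cells. All 6 depleted libraries lay above the 3 control libraries, by 1.63-fold (log2 fold change 0.70, SE 0.09, edgeR adjusted p = 1.13e-05) and 1.43-fold (0.51, SE 0.09, edgeR adjusted p = 0.00033). Rb1cc1, the FIP200 scaffold, was called higher in ERK3-depleted cells alone of the 2 lines (0.37), a call that ended without ERK3-depleted DM2 library 1 or 2 or any control DM2 library (adjusted p 0.0667 to 0.202, and a log2 fold change of 0.24 without ERK3-depleted library 2).

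Of the PI3-kinase complex the lipid kinase Pik3c3 was lower in both lines (-0.36 in ERK3-depleted and -0.37 in MK5-depleted cells), as were Atg14 (-0.34 and -0.38) and Uvrag (-0.33 and -0.30). Becn1, Pik3r4 and Ambra1 were not called in either. All 3 called genes lost their call in both lines after correction for gene length and GC content (log2 fold changes from -0.16 to -0.03). Atg14 also lost its call without ERK3-depleted DM2 library 1 (adjusted p 0.0539) and without MK5-depleted DM2 library 1 (0.0598), and Uvrag in MK5-depleted cells without control DM2 library 2 or MK5-depleted DM2 library 1 or 2 (0.0600 to 0.0966).

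Atg9a (chr1:75180860-75192196, minus strand), the gene of a transmembrane protein, had the largest difference on gene counts. It stood at 32.9, 32.4 and 28.3 CPM in control DM2, at 3.39, 2.79 and 10.8 CPM in ERK3-depleted and at 9.45, 9.72 and 19.0 CPM in MK5-depleted cells. No depleted library overlapped with control, and in both lines library 3 was the highest. The gene was 5.46-fold lower in ERK3-depleted (log2 fold change -2.45, SE 0.35, edgeR adjusted p = 3.46e-05) and 2.45-fold lower in MK5-depleted cells (-1.29, SE 0.33, edgeR adjusted p = 0.00436). Atg9a overlaps the processed transcript Gm29253 on its own strand, and how reads that fit both were counted is not given in the sources used here. The counts made up 48.5, 48.7 and 47.8% of the RSEM estimate in control DM2, but 8.63, 7.49 and 25.3% in ERK3-depleted DM2. In MK5-depleted DM2 they made up 19.8, 22.2 and 32.6%. On RSEM expected counts the differences were -0.69 (edgeR adjusted p = 3.34e-05) and -0.36 (edgeR adjusted p = 0.00680), which are called and far smaller. On that scale the differences of Atg4c (-1.10 and -0.78) and Ulk2 (-0.82 and -0.71) were larger than that of Atg9a in both lines. Of the other membrane genes Atg2b was higher in both lines (0.31 and 0.27), Wipi2, which recruits Atg16l1, was higher in ERK3-depleted cells (0.47), and Wipi1 was lower in MK5-depleted cells (-0.39).

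The ATG4 proteases split. Atg4c (chr4:99193934-99259787, plus strand) stood at 27.2, 29.3 and 27.6 CPM in control DM2, at 13.8, 11.3 and 18.8 CPM in ERK3-depleted and at 17.95, 18.8 and 15.95 CPM in MK5-depleted cells. The groups did not overlap, and the gene was 1.91-fold lower in ERK3-depleted (log2 fold change -0.94, SE 0.13, edgeR adjusted p = 2.23e-05) and 1.59-fold lower in MK5-depleted cells (-0.67, SE 0.13, edgeR adjusted p = 0.000601). Atg4a was lower (-0.26 and -0.28) and Atg4d higher (0.45 and 0.46) in both lines, and Atg4b was called in neither. Of the conjugation enzymes Atg3 was lower (-0.45) and Atg10 higher (0.38) in ERK3-depleted cells, and Atg12 was lower in MK5-depleted cells (-0.21). The call of Atg12 ended in 9 of 18 cases of 1 library left out, with -0.14 without MK5-depleted DM2 library 3, and those of Atg4a in 6 and 5 cases (adjusted p at most 0.138). The Atg3 libraries of ERK3-depleted DM2 stood at 55.1, 45.8 and 72.3 CPM, of which the third is close to the control DM2 libraries.

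Map1lc3a (chr2:155276297-155278073, plus strand) was the ATG8 gene higher in both depleted lines. It stood at 388, 432 and 244 CPM in ERK3-depleted and 292, 310.2 and 253 CPM in MK5-depleted DM2, against 187, 196 and 187 CPM in control, and no library overlapped with control. The difference was 1.86-fold in ERK3-depleted (log2 fold change 0.90, SE 0.18, edgeR adjusted p = 0.000475) and 1.497-fold in MK5-depleted cells (0.58, SE 0.18, edgeR adjusted p = 0.0142). The call in MK5-depleted cells was lost after correction for gene length and GC content and on TMM-scaled TPM. In ERK3-depleted cells it was kept under both. Gabarap, whose protein acts late in the closing of the autophagosome, stood at 563, 555 and 511 CPM in control DM2 and at 1003, 1244 and 692 CPM in ERK3-depleted DM2, without overlap (log2 fold change 0.85, SE 0.18, edgeR adjusted p = 0.000751). In MK5-depleted cells it stood at 770, 846 and 584 CPM, above each control library, and was not called (log2 fold change 0.43). Gabarapl2 was higher in ERK3-depleted cells (0.50) from counts that made up 24% of its RSEM estimate, and was called with RSEM counts at a log2 fold change of 0.27. In all 3 ATG8 genes ERK3-depleted library 3, the library with the fewest reads outside genes in its group, lay nearest to control.

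Of the receptors Nbr1 was lower in both lines (-0.40 and -0.37), and Optn was lower in ERK3-depleted cells (-0.33). All 3 of these calls were lost after correction for gene length and GC content (Nbr1 -0.05 and -0.08, Optn -0.18). Bnip3l was higher in ERK3-depleted cells, at 165, 182 and 136 CPM against 105, 107 and 105 CPM in control DM2 (log2 fold change 0.61), and its direction turned on the TPM scale (-0.20 where TPM were TMM-scaled, limma adjusted p = 0.0436). Bnip3 was higher in MK5-depleted cells (0.39), where library 3 at 34.3 CPM lay within the control range and the others at 53.5 and 47.7 CPM above it. This call was lost on RSEM counts, after correction for gene length and GC content, and on TMM-scaled TPM. Sqstm1 was called in neither line. Tfeb was higher in ERK3-depleted DM2 cells (0.32) and was called in no other comparison. The call of Tfeb ended without control DM2 library 2 or ERK3-depleted DM2 library 1 or 2 (adjusted p 0.0641 to 0.0949), and that of Bnip3 without control DM2 library 2 or 3 or MK5-depleted DM2 library 1 or 2 (0.0745 to 0.168).

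**Figure D3:**
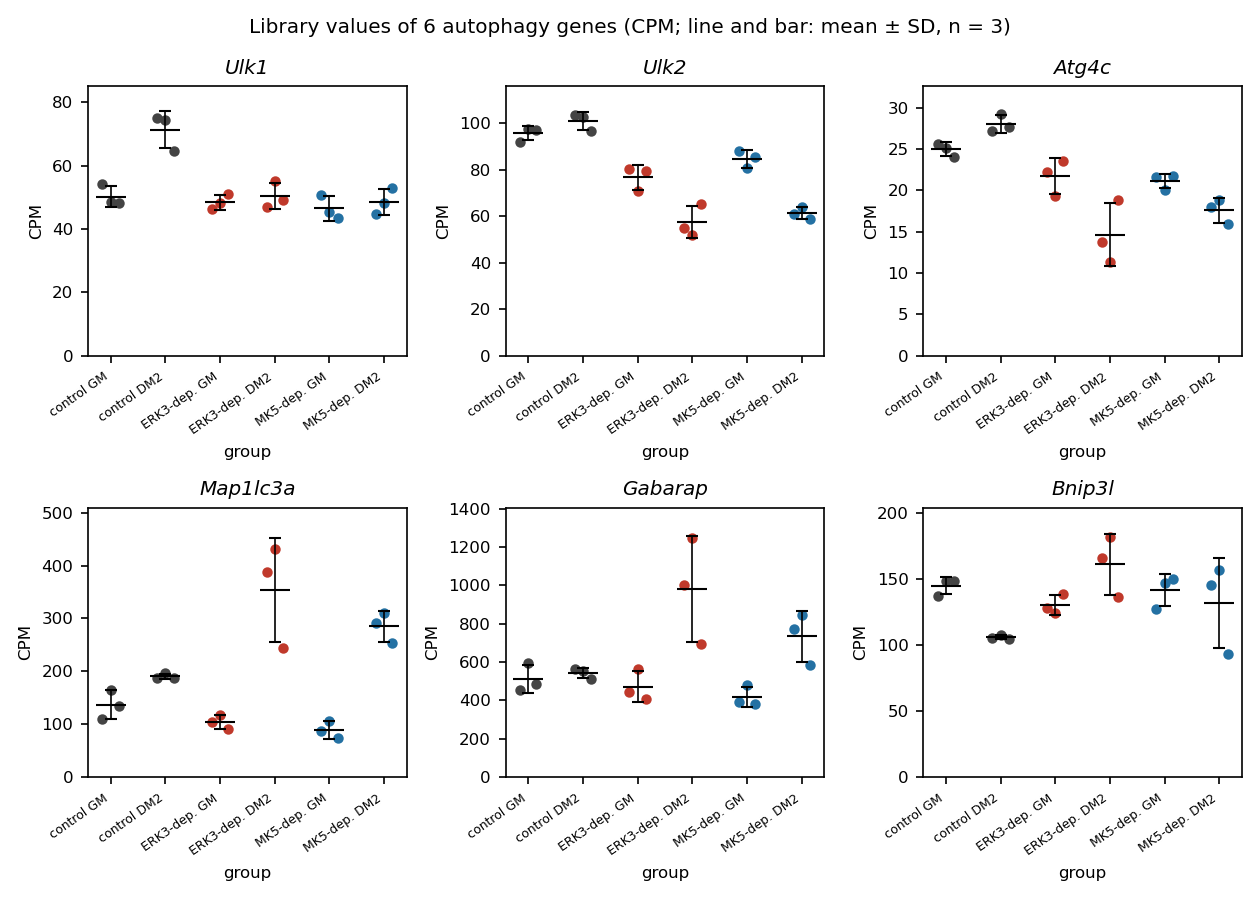
Level of 6 genes in each library (CPM, points) with the mean ± SD (n = 3) of each group, control grey, ERK3-depleted red and MK5-depleted blue. Ulk1, Ulk2 and Atg4c stand lower in both depleted lines at DM2 than in control, with ERK3-depleted libraries of Ulk2 between 52.0 and 65.3 CPM, and Map1lc3a and Gabarap spread between 244 and 432 CPM and between 692 and 1244 CPM in ERK3-depleted DM2.

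Fewer members were called at DM2 without the libraries with many reads outside genes, and so were fewer of all genes. Without the 4 of them 3 members were higher and 8 lower in ERK3-depleted than in control DM2 (25.3% of all genes were called), and the same numbers in MK5-depleted cells (30% of all genes), where 10 of the calls above remained in each line. Those that remained in both lines were 7: Ulk1, Ulk2, Atg9a, Atg4c and Nbr1, which were lower, and Atg101 and Atg2b, which were higher. Atg9a was 2.89-fold lower in ERK3-depleted (-1.53) and 1.63-fold lower in MK5-depleted cells (-0.70). Atg4c stood at -0.58 and Bnip3l at 0.36 in ERK3-depleted cells. The calls of Map1lc3a were not kept (0.35, edgeR adjusted p = 0.212 in ERK3-depleted and 0.42, edgeR adjusted p = 0.125 in MK5-depleted cells), nor that of Gabarap (0.34, edgeR adjusted p = 0.155). When the percentage of reads lying outside genes entered the model as a covariate, 2 members were higher and 8 lower in ERK3-depleted DM2 (19.4% of all genes were called), and 5 higher and 11 lower in MK5-depleted DM2 (42.6% of all genes). Under it 9 of the 23 calls in ERK3-depleted cells remained, with Map1lc3a at 0.35 and Gabarap at 0.21 not called. In MK5-depleted cells 16 of the 17 remained, among them Map1lc3a (0.42, edgeR adjusted p = 0.0449). Ulk1, Ulk2, Atg9a and Atg4c were lower in both lines under all 16 alternatives and with each library left out in turn. The myotube marker sums given above were lower in several depleted DM2 libraries than in control, and their part in these calls was not tested.

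The transcripts that RSEM assigned to a gene also moved with these libraries. The mean assigned length of Sqstm1 was 1828, 1889 and 1836 bases in control DM2 and 1216, 1214 and 1542 bases in ERK3-depleted DM2, and that of Pik3r4, the regulatory subunit of the PI3-kinase, 4185, 3711 and 3690.0 bases against 1711, 1614 and 2441 bases. Both shortened in all 3 libraries, and library 3 the least. Atg4b went the other way, from 1578, 1795 and 1890.2 to 3506, 3532 and 2190.4 bases. Of the 37 genes 6 were longer and 4 shorter in ERK3-depleted than in control DM2 (libraries apart and means over 1.1 times apart), against 9.1% and 10.2% of all genes. In MK5-depleted DM2 3 were longer and 2 shorter (5.53% and 7.72% of all genes), and in GM the numbers were 0 and 1 for ERK3-depleted cells (0.882% and 1.49%) and 0 and 0 for MK5-depleted cells (0.875% and 0.969%). The 1 shorter in ERK3-depleted GM was Pik3r4, so its shortening was not confined to DM2. Between control DM2 and control GM 2 were longer, Pik3r4 and Map1lc3b, and 1 was shorter, Bnip3l (3.72% and 2.41%). A count per gene is not divided by length and can move with such a shift, while TPM divide by the assigned length. The 6 longer genes in ERK3-depleted DM2 were Ulk2, Becn1, Wipi2, Atg4b, Bnip3 and Bnip3l. Of them Wipi2 and Bnip3l were called higher than control there on counts and Ulk2 lower. The part of length in these calls was not tested.

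**Figure D4:**
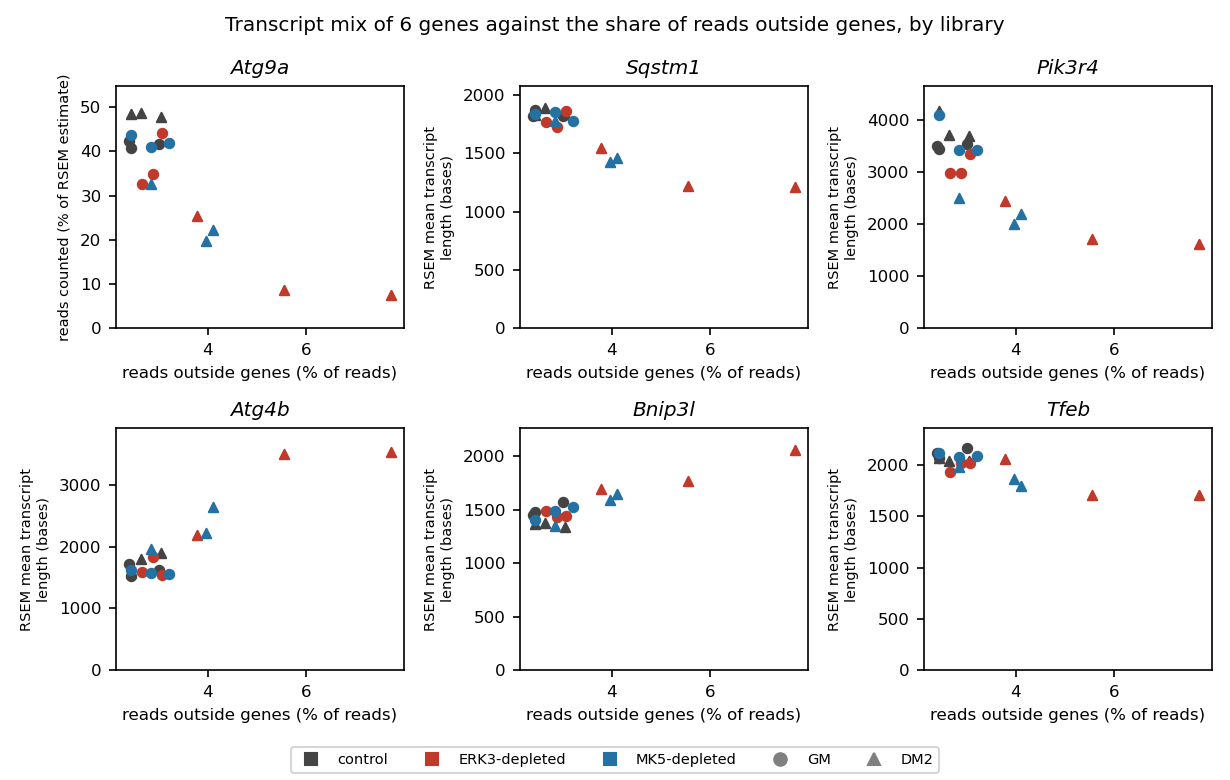
For each library, the share of its reads outside genes (x axis, percent of reads) against the counted share of the RSEM estimate for Atg9a and the mean RSEM transcript length in bases for 5 other genes, chosen after their values were seen. The ERK3-depleted DM2 libraries (red triangles) lie to the right at 3.79 to 7.73%, with Atg9a at 7.49 to 25.3% and Sqstm1 at 1214 to 1542 bases.

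Within each depleted line more members were called higher than lower at DM2 against GM. In ERK3-depleted cells 19 members were higher, 6 lower and 12 not called (55.1% of all genes were called, 28.9% higher and 26.2% lower), with medians of 0.25 and 0.01. In MK5-depleted cells 14 were higher, 5 lower and 18 not called (49.3% of all genes, 24.6% higher and 24.8% lower), with medians of 0.13 and 0.00. In all 3 lines 8 genes rose: Atg13, Becn1, Uvrag, Atg2a, Atg16l1, Map1lc3a, Map1lc3b and Sqstm1. The calls of Atg13 in MK5-depleted cells ended in 6 of 18 cases of 1 library left out (0.12 without MK5-depleted DM2 library 3), of Atg13 in ERK3-depleted cells in 1 and of Sqstm1 in ERK3-depleted cells in 4 (adjusted p at most 0.248). The direction of Becn1 in ERK3-depleted cells turned on unstranded counts (-0.26) and that of Atg2a in control after correction for gene length and GC content (-0.06). In control the call of Map1lc3b was lost on TMM-scaled TPM. Bnip3 fell in all 3. No member was called in opposite directions in any pair of lines. Neither this nor the count of 8 was made over all genes, so neither can be set against a background.

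Map1lc3a rose 3.40-fold in ERK3-depleted cells, from 104, 118 and 90.7 CPM (log2 fold change 1.76, SE 0.19, edgeR adjusted p = 6.85e-07), and 3.20-fold in MK5-depleted cells (1.68, SE 0.19), with the DM2 libraries given above all higher than those of GM. Map1lc3b stood at 88.9, 97.0 and 85.6 CPM in ERK3-depleted GM and 166, 180.1 and 127 CPM at DM2 (log2 fold change 0.80, SE 0.12), and at 76.9, 86.7 and 75.9 CPM and 133, 157 and 123 CPM in MK5-depleted cells (0.79, SE 0.12). The levels of Map1lc3b did not overlap between the media in either line. Gabarap rose in both (1.06 and 0.81), from 471 ± 81.2 and 417 ± 53.5 CPM in GM. Atg16l1, which places the conjugation complex on the membrane, rose by 0.55 on the log2 scale in MK5-depleted cells, from 31.98, 30.7 and 29.8 to 45.5, 40.3 and 49.7 CPM. Its libraries were apart as well. Rb1cc1 rose in ERK3-depleted cells from 102.5, 91.0 and 109.5 CPM to 169, 191 and 130.5 CPM (log2 fold change 0.69, SE 0.15, edgeR adjusted p = 0.000801), also without overlap.

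Atg9a fell in ERK3-depleted cells from 15.7, 17.0 and 22.6 CPM (log2 fold change -1.69, SE 0.36, edgeR adjusted p = 0.000800), with -2.58 when ERK3-depleted DM2 library 3 was left out. On RSEM counts it fell by 0.30 (edgeR adjusted p = 0.0189). In MK5-depleted cells Atg9a fell from 24.9, 21.1 and 20.8 CPM (-0.81, SE 0.33, edgeR adjusted p = 0.0498), a call lost in 14 of 18 cases when 1 library was left out (log2 fold changes -1.24 to -0.62) and on RSEM counts (-0.06, edgeR adjusted p = 0.644). Ulk2, Pik3c3 and Optn fell in both depleted lines and were not called in control (0.08, -0.09 and -0.23). The difference from the control change was not called for Pik3c3 in either line (-0.28 and -0.22), nor for Optn in MK5-depleted cells (-0.28). Without the 4 libraries 12 members were higher and 4 lower at DM2 in ERK3-depleted cells, with Atg9a at -0.77, Gabarap at 0.55 and Map1lc3a at 1.22 (32.8% of all genes were called), and 15 were higher and 6 lower in MK5-depleted cells (37.9%).

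**Figure D5:**
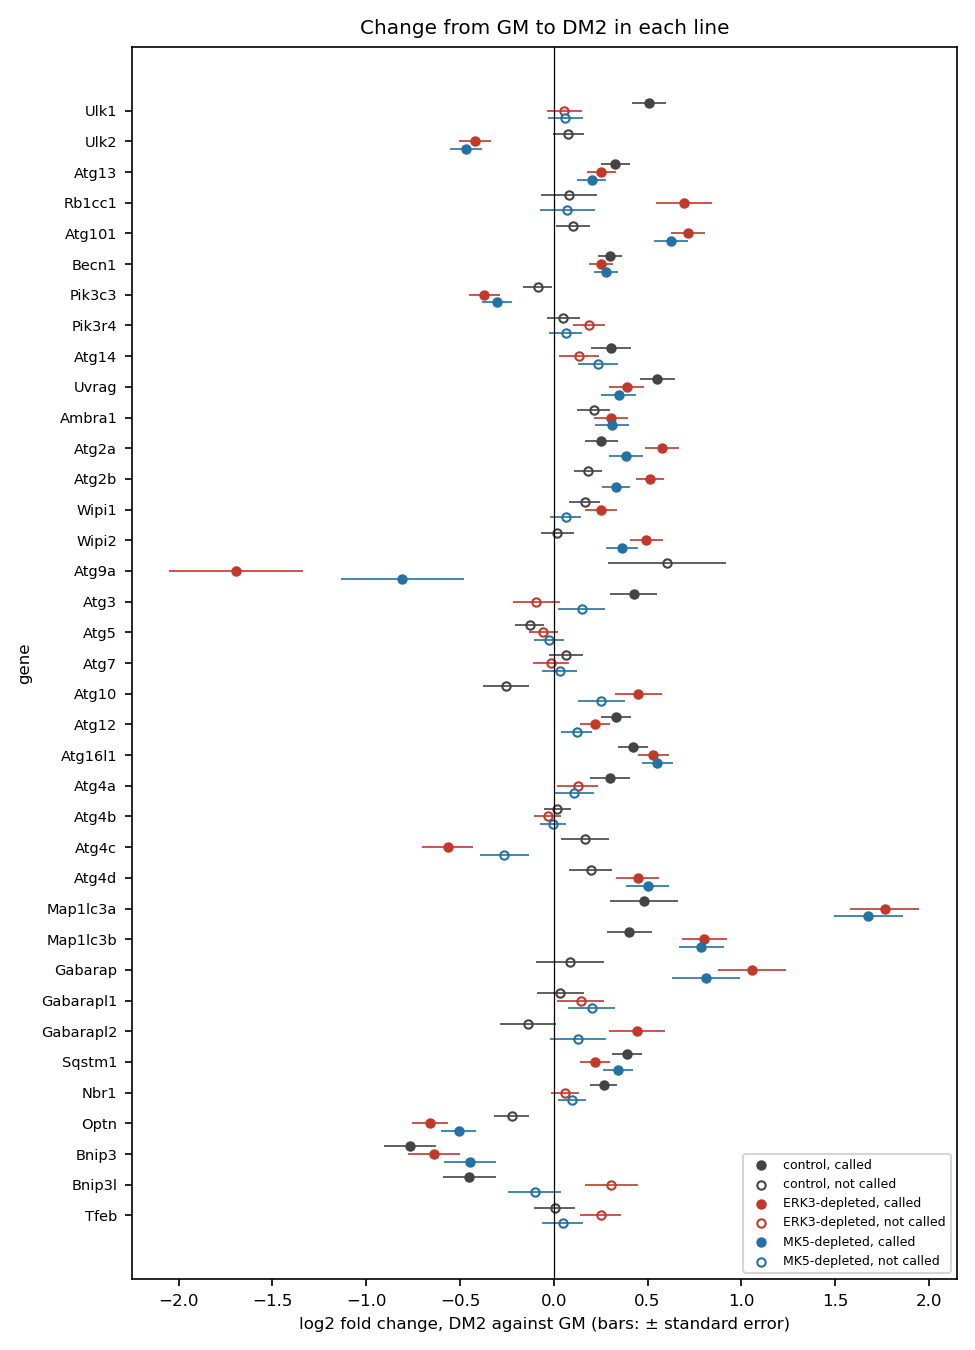
Log2 fold change (± standard error) from GM to DM2 of each of the 37 genes in control (grey), ERK3-depleted (red) and MK5-depleted (blue) cells, with called genes filled. Map1lc3a lies at 0.48 in control and at 1.76 and 1.68 in the depleted lines, and Atg9a at -1.69 and -0.81 in the depleted lines.

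The difference between a depleted line's change from GM to DM2 and that of control was tested as an interaction. It was called for 15 members in ERK3-depleted cells, 9 higher and 6 lower (28.6% of all genes were called, 14.6% higher and 14% lower), and for 5 in MK5-depleted cells, 2 higher and 3 lower (18% of all genes, 8.54% higher and 9.48% lower). The medians were 0.09 and -0.01 over the members and 0.02 and 0.01 over all genes, and the control response is shared by both. In both lines Map1lc3a rose more than in control (1.28, SE 0.26, edgeR adjusted p = 0.00378 in ERK3-depleted and 1.198, SE 0.26, edgeR adjusted p = 0.00936 in MK5-depleted cells), as did Atg101 (0.61 and 0.52). Ulk1 rose in control and did not pass the test in either depleted line, and the difference itself was called in both (-0.45 and -0.44), as was that of Ulk2 (-0.50 and -0.54) and of Atg9a (-2.29 and -1.41). On RSEM counts the difference of Atg9a was -0.69 and -0.46, called in both lines. After correction for gene length and GC content Ulk1 (-0.30), Ulk2 (-0.21), Atg101 (0.19) and Atg9a (-1.35) lost this call in MK5-depleted cells, and Gabarapl2 (0.41), Atg3 (-0.48) and Optn (-0.29) lost it in ERK3-depleted cells. In ERK3-depleted cells the difference was also called for Gabarap (0.97), Bnip3l (0.76), Atg4c (-0.73), Atg10 (0.71), Rb1cc1 (0.61), Gabarapl2 (0.58), Atg3 (-0.52), Wipi2 (0.47), Optn (-0.44) and Atg2b (0.33). That of Bnip3l turned on the TPM scale (-0.51, and -0.070 where TPM were TMM-scaled). Without the 4 DM2 libraries 2 were higher and 1 lower in ERK3-depleted cells (4.45% of all genes were called): Bnip3l (0.50), Atg10 (0.69) and Atg9a (-1.38). The other 12 lost the call, at 0.73 for Map1lc3a, 0.45 for Gabarap, -0.39 for Atg4c, 0.36 for Atg101, 0.27 for Rb1cc1, 0.34 for Gabarapl2, -0.21 for Atg3, -0.33 for Ulk2, 0.23 for Wipi2, -0.50 for Ulk1, -0.49 for Optn and 0.34 for Atg2b. When the percentage of reads lying outside genes entered the model, 0 were called in ERK3-depleted cells by edgeR (1.43% of all genes), with 11 at an unadjusted p under 0.05, and the values of Atg9a, Map1lc3a and Gabarap were -1.18, 0.78 and 0.39. In MK5-depleted cells all 5 remained called with the covariate (19.6% of all genes were called), at -1.10 for Atg9a, 1.07 for Map1lc3a, -0.50 for Ulk2, 0.47 for Atg101 and -0.45 for Ulk1. Without the 4 libraries (12% of all genes) Map1lc3a (1.03), Ulk2 (-0.60), Atg101 (0.50) and Atg9a (-0.83) remained called and Ulk1 (-0.32) did not, and Map1lc3a was called under all 17 alternatives and with each library left out. When 1 library was left out, the interaction call was lost for Gabarapl2 in 13, Atg3 in 10, Rb1cc1 in 9, Optn and Atg2b in 5 and Ulk1 in 2 of 18 cases in ERK3-depleted cells (adjusted p at most 0.121), and for Atg9a in 12 and Ulk1 in 7 in MK5-depleted cells (at most 0.114). The count in MK5-depleted cells ran from 3 to 10 when 1 library was left out. It was 10 without ERK3-depleted DM2 library 3, 9 without MK5-depleted DM2 library 3 and 8 without ERK3-depleted DM2 library 2. It was 3 without control GM library 2 or 3, control DM2 library 1 or 2, MK5-depleted GM library 1 or MK5-depleted DM2 library 1 or 2.

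No member passed the test between the depleted lines in the main edgeR fit. Some other settings, with and without the replicate number as a block, gave calls at DM2. In GM 0 members were called between MK5-depleted and ERK3-depleted cells by edgeR (0% of all genes), with 1 at an unadjusted p under 0.05, and 0 by DESeq2 and limma-voom. At DM2 0 were called by edgeR (0% of all genes), with 8 at an unadjusted p under 0.05, 1 by DESeq2 and 0 by limma-voom. The nearest to a call at DM2 were Wipi2, at 126, 129 and 114 CPM in MK5-depleted against 160, 175 and 133 CPM in ERK3-depleted cells (log2 fold change -0.35, SE 0.09, edgeR adjusted p = 0.138), and Atg9a (1.16, SE 0.36, edgeR adjusted p = 0.142). The groups of Wipi2 did not overlap, and those of Atg9a did. In GM the nearest were Wipi2, at 98.2, 93.9 and 94.1 against 109, 114 and 110.0 CPM (log2 fold change -0.22, SE 0.09, edgeR adjusted p = 0.536), and Atg2b (0.14, SE 0.07, edgeR adjusted p = 0.623). Without ERK3-depleted DM2 library 3 there were 11 calls at DM2, 3 higher and 8 lower, where 25.2% of all genes were called. With the replicate number as a block, in which the libraries of these 2 groups deviated together by number, 1 member was called (Wipi2) and 2.64% of all genes. Without the 4 DM2 libraries 0 members were called by edgeR (0.0208% of all genes), with 6 at an unadjusted p under 0.05, and the nearest were Bnip3l (-0.53) and Rb1cc1 (-0.55), both at an edgeR adjusted p of 0.179.

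Other genes of the pathway, from lists that do not overlap with the 37, moved as follows. Of 18 lysosome genes 15 rose from GM to DM2 in control and 0 fell (22.5% and 23.1% of all genes, with medians of 0.57 and -0.02), among them the sialidase gene Neu1 (24.2 ± 1.29 to 53.3 ± 5.81 CPM) and Hexa (log2 fold change 1.01), which encode enzymes of glycan breakdown. In depleted against control GM 0 of the 18 were called in either line. At DM2 2 were higher and 7 lower in ERK3-depleted cells (28% and 27.8% of all genes, with medians of -0.08 and 0.01) and 1 higher and 6 lower in MK5-depleted cells (22.2% and 22.9%, with medians of -0.19 and 0.00). Without the 4 DM2 libraries the median of the 18 was -0.23 in ERK3-depleted and -0.19 in MK5-depleted cells, against -0.01 over all genes in each. Lamp2, a lysosomal membrane protein needed for fusion, stood at 640 ± 21.6 CPM in control, 374 ± 36.5 in ERK3-depleted and 363 ± 82.4 CPM in MK5-depleted DM2 (log2 fold changes -0.77 and -0.82, and -0.65 and -1.13 without the 4 DM2 libraries). The proton pump subunit Atp6v1h was lower in both (-0.92 and -0.68) and Atp6v1a was among the most changed in MK5-depleted cells (-0.74), while the protease gene Ctsd was higher in ERK3-depleted cells (0.75). Leaving out the 4 DM2 libraries, the value of Atp6v1h was -0.54 and -0.39 and that of Ctsd 0.22, no longer called.

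Of 29 upstream regulators 13 rose and 4 fell in control from GM to DM2 (22.5% and 23.1% of all genes), with Ddit4, an inhibitor of mTORC1 signalling, falling by 0.93 on the log2 scale, and Trp53inp2 (0.83), which binds LC3, and Mitf (0.80), a relative of TFEB, rising. In GM 4 were lower and 0 higher in each depleted line (3.06% of all genes were lower in ERK3-depleted and 3.74% in MK5-depleted cells). These included Trp53inp1 (-0.78 in ERK3-depleted and -0.66 in MK5-depleted cells) and the sestrin genes Sesn3 (-0.59 and -0.52) and Sesn1 (-0.34 and -0.39), whose proteins restrain mTORC1. At DM2 6 were higher and 11 lower in ERK3-depleted (28% and 27.8% of all genes) and 3 higher and 9 lower in MK5-depleted cells (22.2% and 22.9%). When the 4 DM2 libraries were left out, the median of the 29 was -0.14 in ERK3-depleted and -0.09 in MK5-depleted cells, against -0.01 over all genes. Prkaa2, a catalytic subunit gene of AMPK, stood at 6.77 ± 0.644 CPM in control DM2, 3.20 ± 0.953 in ERK3-depleted and 2.30 ± 0.529 CPM in MK5-depleted cells (-1.08 and -1.55). Sesn3 was lower in both (-0.87 and -0.96), Nrbf2, a subunit of the PI3-kinase complex with Atg14, in ERK3-depleted cells (-0.73), and Trp53inp1 in MK5-depleted cells (-0.69). Without the 4 DM2 libraries Prkaa2 was not called in ERK3-depleted cells (-0.67), the value of Nrbf2 was -0.42 there, and that of Trp53inp1 was -1.20 in MK5-depleted cells.

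Foxo3 was called lower than control in both depleted lines in both media. It stood at 62.9, 73.2 and 66.1 CPM in control GM, 47.5, 58.4 and 54.1 CPM in ERK3-depleted and 55.8, 53.7 and 53.6 CPM in MK5-depleted GM, without overlap (log2 fold changes -0.34 and -0.31, edgeR adjusted p = 0.0315 and 0.0399). At DM2 it stood at 69.5 ± 2.80 CPM in control, 53.6 ± 5.42 in ERK3-depleted and 50.6 ± 2.84 CPM in MK5-depleted cells (-0.37 and -0.46). With the 4 DM2 libraries left out Foxo3 was not called in ERK3-depleted DM2 (-0.26, edgeR adjusted p = 0.108) and was called in MK5-depleted DM2 (-0.39), and neither Foxo1 in ERK3-depleted (0.14) nor Mapk6 (-0.35) and Mapkapk5 (-0.44) in MK5-depleted DM2 were called. These are RNA levels and hold no measure of the FoxO3 protein. Foxo1 was higher in ERK3-depleted DM2 cells (0.53) and was not called in MK5-depleted DM2 (0.01) or in GM (-0.10 and -0.09). Foxo4 was not called in GM (-0.06 and -0.04) or at DM2 (0.23 and 0.22). Tfeb was not called in GM (0.07 and -0.05) or in MK5-depleted DM2 (-0.01). Mapk6 was lower in ERK3-depleted DM2 (-0.85) and in MK5-depleted DM2 (-0.40), and was not called in GM (-0.15 and 0.32). Mapkapk5 was lower in MK5-depleted DM2 (-0.68), and was not called in ERK3-depleted DM2 (-0.57) or in GM (-0.51 and -0.55).

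Of 16 other receptors tested 5 rose and 2 fell in control from GM to DM2 (22.5% and 23.1% of all genes), led by Tollip (0.73), Calcoco1 (0.68) and Retreg1 (0.51), a receptor for the endoplasmic reticulum. Calcoco1 was lower in GM in both depleted lines (-0.44 and -0.60), Phb2 was higher in ERK3-depleted GM (0.31) and Pink1, the kinase that marks damaged mitochondria, was lower in MK5-depleted GM (-0.59). At DM2 4 were higher and 8 lower in ERK3-depleted (28% and 27.8% of all genes) and 3 higher and 7 lower in MK5-depleted cells (22.2% and 22.9%). When the 4 DM2 libraries were left out, the median of the 16 was -0.21 in ERK3-depleted and -0.15 in MK5-depleted cells, against -0.01 over all genes. The ferritin receptor Ncoa4 was lower (8.45 ± 0.726 CPM in control, 2.78 ± 1.76 in ERK3-depleted and 4.06 ± 0.957 in MK5-depleted DM2), and Ccpg1, another receptor for the endoplasmic reticulum, was higher in both (1.33 and 0.61). Sec62 was higher in ERK3-depleted cells (0.81) and the kinase gene Tbk1 lower in MK5-depleted cells (-0.57). Of 24 other membrane and fusion factors 8 rose and 1 fell in control (22.5% and 23.1% of all genes), led by Sh3glb1 (0.88), Vps33a (0.65) and Vps18 (0.47), the last a pair of genes of the tethering complexes of the lysosome. In GM 0 of them were called in either depleted line. At DM2 5 were higher and 9 lower in ERK3-depleted (28% and 27.8% of all genes) and 3 higher and 6 lower in MK5-depleted cells (22.2% and 22.9%), with Vmp1 (1.03 and 0.54) and the SNARE gene Vamp8 (0.87 and 0.53) higher and Zfyve1 (-0.83 and -0.53) lower in both. The median of the 24 was -0.09 in ERK3-depleted and -0.13 in MK5-depleted cells when the 4 DM2 libraries were left out, against -0.01 over all genes. Ccpg1 (0.08), Vmp1 (0.08) and Zfyve1 (-0.28) were then not called in MK5-depleted cells, Sec62 stood at 0.38 and Vmp1 at 0.57 in ERK3-depleted cells.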

How the data were processed

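Poly-A RNA of 18 C2C12 libraries was sequenced with a strand-specific kit, per the labels' protocols. The authors deposited, for each library, read counts per gene and RSEM expected counts, TPM and transcript lengths. STAR 2.5.1b, RSEM 1.2.28 and bcl2fastq 2.17 with GRCm38 are named in the submitters' processing notes. The reverse-strand counts were used. Lines that name no gene were left out of library sizes and took 21.7 to 35.8% of the reads.

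The counts were fitted in 1 model of 6 groups with edgeR 4.0.16 in R 4.3.3 (TMM, filterByExpr, quasi-likelihood with robust estimation, 12 residual degrees of freedom, 13939 genes tested), with p-values adjusted by Benjamini-Hochberg over all genes and calls under 0.05. CPM are TMM-scaled. DESeq2 1.42.0 and limma 3.58.1 served as alternatives, with RSEM expected counts rounded and log2(TPM + 1). The share of reads outside genes, from the counts' own summary lines, was a covariate in 1 alternative. Leaving out 4 DM2 libraries and scaling TPM by TMM were chosen after seeing the data.

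The 37 members and the other lists were chosen with earlier results of these data known. Library values are given for up to 6 called members with the largest change in each comparison. Same-numbered libraries deviated together, with every correlation over 0.1, in 5 of 15 pairs of groups (control and ERK3-depleted GM 0.155 to 0.290, control and MK5-depleted GM 0.142 to 0.190, control and ERK3-depleted DM2 0.108 to 0.205, ERK3-depleted GM and DM2 0.156 to 0.291, both depleted lines at DM2 0.281 to 0.498). The labels do not say what a number stands for.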

Additional observations from a re-analysis of the deposited data

Results flagged for a closer look

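For 20 results the change from GM to DM2 differed between a depleted line and control by an interaction test over all genes (edgeR, adjusted p under 0.05), and both lines were set against the same 6 control libraries. In ERK3-depleted cells the log2 difference of the changes was -2.29 for Atg9a, 1.28 for Map1lc3a, 0.97 for Gabarap, 0.76 for Bnip3l, -0.73 for Atg4c, 0.71 for Atg10, 0.61 for Rb1cc1, 0.61 for Atg101, 0.58 for Gabarapl2, -0.52 for Atg3, -0.50 for Ulk2, 0.47 for Wipi2, -0.45 for Ulk1, -0.44 for Optn and 0.33 for Atg2b. In MK5-depleted cells it was -1.41 for Atg9a, 1.198 for Map1lc3a, -0.54 for Ulk2, 0.52 for Atg101 and -0.44 for Ulk1. Without the 4 DM2 libraries with many reads outside genes 3 of the 15 results in ERK3-depleted cells and 4 of the 5 in MK5-depleted cells remained, and with the share of those reads as a covariate 0 and 5. On RSEM counts the difference of Atg9a was -0.69 in ERK3-depleted and -0.46 in MK5-depleted cells. That of Bnip3l in ERK3-depleted cells turned to -0.070 on TMM-scaled TPM.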

How the results depend on the processing

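Of 124 member calls recomputed under up to 17 alternatives, 1751 of 2064 values were kept, 283 lost their call in the same direction and 30 reversed. With 1 library left out at a time 2056 of 2232 values were kept, 176 lost their call and 0 reversed. Unscaled TPM moved the median of all genes in each comparison, to -0.46 in ERK3-depleted and -0.29 in MK5-depleted against control DM2, and held most reversals, and the cause of the others was not tested. Under it the log2 fold changes from GM to DM2 in ERK3-depleted cells were -0.074 for Atg13, -0.10 for Wipi2, -0.23 for Gabarapl2, -0.32 for Becn1, -0.067 for Wipi1 and -0.081 for Atg12, and in MK5-depleted cells -0.055 for Wipi2 and -0.029 for Becn1. Against control at DM2 they were, in ERK3-depleted cells, -0.25 for Rb1cc1, -0.43 for Wipi2, -0.33 for Gabarapl2, -0.061 for Atg4d, -0.23 for Atg2b, -0.13 for Atg10, -0.71 for Bnip3l and -0.070 for Tfeb, and in MK5-depleted cells -0.12 for Bnip3 and -0.089 for Atg2b. In the ERK3 response they were -0.34 for Wipi2, -0.28 for Gabarapl2, -0.13 for Atg2b and -0.51 for Bnip3l. TMM-scaled TPM turned Becn1 (-0.011, GM to DM2 in ERK3-depleted cells) and Bnip3l (-0.20 against control and -0.070 in the response). Unstranded counts turned Becn1 (-0.26, same comparison), the outside-gene covariate turned Rb1cc1 (-0.15) and Atg3 (0.023) against control at DM2 in ERK3-depleted cells, and removal of the length and GC trend turned Atg2a in control (-0.061, and -0.063 with the block).

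Counts of members called moved by over 1.5 times as follows. The share of all genes called moved with the setting too, as printed above for several settings. A change of count is therefore not by itself a trait of the members. ERK3-depleted DM2 against GM gave 12 with the covariate and 16 without the 4 libraries. ERK3-depleted against control GM gave 0 at an adjusted p of 0.01 and on TPM, 2 with the covariate, and 3 with the replicate block, with block and GC correction, with DESeq2 and without the 4 libraries. MK5-depleted against control GM gave 0 at 0.01, 5 with the covariate and without the 4 libraries, 6 with the block and 9 with block and GC correction. Against control at DM2, ERK3-depleted cells gave 10 with the covariate and 11 without the 4 libraries, and MK5-depleted cells 11 without them. MK5-depleted against ERK3-depleted DM2 gave 3 with no filter, 1 with the block and with DESeq2 and 4 with block and GC correction. The ERK3 response gave 6 at 0.01, 0 with the covariate and 3 without the 4 libraries. The MK5 response gave 2 at 0.01, 8 with a filter of 1 CPM, 9 with only the libraries compared and with the block, 10 with the block within line and on TMM-scaled TPM, 3 with GC correction and 11 on TPM. With 1 library left out the counts ran from 13 to 19 (control DM2 against GM), 20 to 28 (ERK3-depleted), 17 to 20 (MK5-depleted), 0 to 2 and 0 to 5 (ERK3- and MK5-depleted against control GM), 0 to 0 and 0 to 11 (MK5- against ERK3-depleted in GM and at DM2), 20 to 24 and 12 to 19 (against control at DM2), and 10 to 17 and 3 to 10 (ERK3 and MK5 response). Where the 4 libraries are left out, the lone DM2 library of each depleted line is assumed to vary like the other groups.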
